A study of Mus musculus with 8 samples.

Results

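Epas1, the gene of the oxygen-regulated transcription factor HIF-2 alpha, and 9 further genes of the pathway by which cells sense low oxygen were followed in the spleens of mice given tRA. Epas1 was chosen from the measured comparison of tRA with control mice in these same data, and Hif1a, Arnt, Vhl, Egln1, Egln2, Egln3, Hif1an, Bnip3 and Vegfa were chosen by their known roles around it. The difference between tRA and control mice is therefore given for the 10 genes as a description, without a test. The 10 genes were taken by their Ensembl identifiers from the 51826 genes of the count table, and 10 of the 10 were among the 16484 genes kept by the filter on low counts.

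The libraries came from the RNA of unsorted spleen cells of 8 Balb/c females aged 3 months, 1 library for each mouse, with no genetic change named. None of these mice had received pristane. In the tRA group, 4 mice took all-trans-retinoic acid (tRA), the active metabolite of vitamin A, by mouth each day from weaning at 1 mg/kg body weight. The other 4 were control mice, for which the study's methods describe the vehicle, canola oil, whereas the treatment text of the sample labels names 1 mg/kg of tRA for all 8 samples. The grouping follows the sample titles. Counts on genes totaled 30919272 to 37539631 per control mouse and 31810417 to 35165876 per tRA mouse. The defining B cell marker Cd79a was at 1396 ± 110.2 CPM (SD, n = 4) in the control mice, and the T cell markers Cd3e and Cd3d at 164 ± 18.4 and 91.7 ± 16.7 CPM (SD, n = 4), so the markers of the 2 main splenic lymphocytes were present. CPM are counts scaled to libraries of a common size, corrected by the TMM method.

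In the presence of oxygen, the prolyl hydroxylases encoded by Egln1, Egln2 and Egln3 modify the HIF alpha subunits, and the VHL protein then marks them for degradation. In low oxygen the alpha subunits are stabilized, pair with ARNT and activate genes of glycolysis, blood vessel growth and mitophagy. The pathway acts largely on protein stability, which RNA levels do not show, and in the spleen HIF-2 alpha is best known from endothelial cells and macrophages.

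Epas1 (ENSMUSG00000024140) lies on chromosome 17 from 86753700 to 86833410 on the plus strand of GRCm38 and has 2 annotated transcripts. It was expressed at 4.06, 4.23, 4.83 and 4.30 CPM in control mice 1 to 4 and 5.74, 5.57, 6.32 and 7.09 CPM in tRA mice 1 to 4. The 4 tRA values all lay above the 4 control values, with control 3 the highest of the controls and tRA 4 the highest of all. The group means were 4.35 ± 0.330 and 6.18 ± 0.684 CPM (SD, n = 4 each), which is a log2 fold change of 0.51 (SE 0.13), tRA over control, or 1.42-fold. The SE here and below was worked back from edgeR's quasi-likelihood test. It is the size of the log2 fold change divided by the square root of the F statistic. For Epas1 it thus comes from the comparison that chose the gene. With 1 mouse left out at a time the log2 fold change was between 0.43 and 0.55. The level rests on few reads, 133 to 167 counts per control mouse and 177 to 233 per tRA mouse. Counting error alone gives a coefficient of variation of 8.26% at the control depth, and the 4 control mice varied by 7.58%. The corresponding values in the tRA mice were 6.94% and 11.1%. In whole spleen suspensions, more cells that express a gene and more of its RNA per cell cannot be told apart.

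Hif1a (chromosome 12, 73901375 to 73947530), the gene of the widely expressed alpha subunit HIF-1 alpha, was found at 113, 104, 84.2 and 110.0 CPM in control mice 1 to 4 and 98.3, 111, 104 and 117 CPM in tRA mice 1 to 4. Control 3 was the lowest of the 8 mice, and the groups overlapped. The log2 fold change was 0.067 (SE 0.096), and it was -0.024 (without control 3) to 0.12 (without control 1) with 1 mouse left out. Arnt (chromosome 3, 95434388 to 95497240) encodes the partner that both alpha subunits need to bind DNA. Its values were 94.1, 90.4, 81.4 and 92.1 CPM in control mice 1 to 4 and 92.5, 96.2, 102 and 99.4 CPM in tRA mice 1 to 4. Here 3 of the 4 tRA mice were above the highest control, tRA 1 was not, and control 3 was again the lowest. Arnt had a log2 fold change of 0.12 (SE 0.066), which was 0.075 without control 3, and the smallest variation of the 10 genes within the control group, a coefficient of variation of 6.27% (n = 4). A further alpha subunit gene, Hif3a, was near the limit of detection with at most 19 counts in a mouse.

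**Figure D1:**
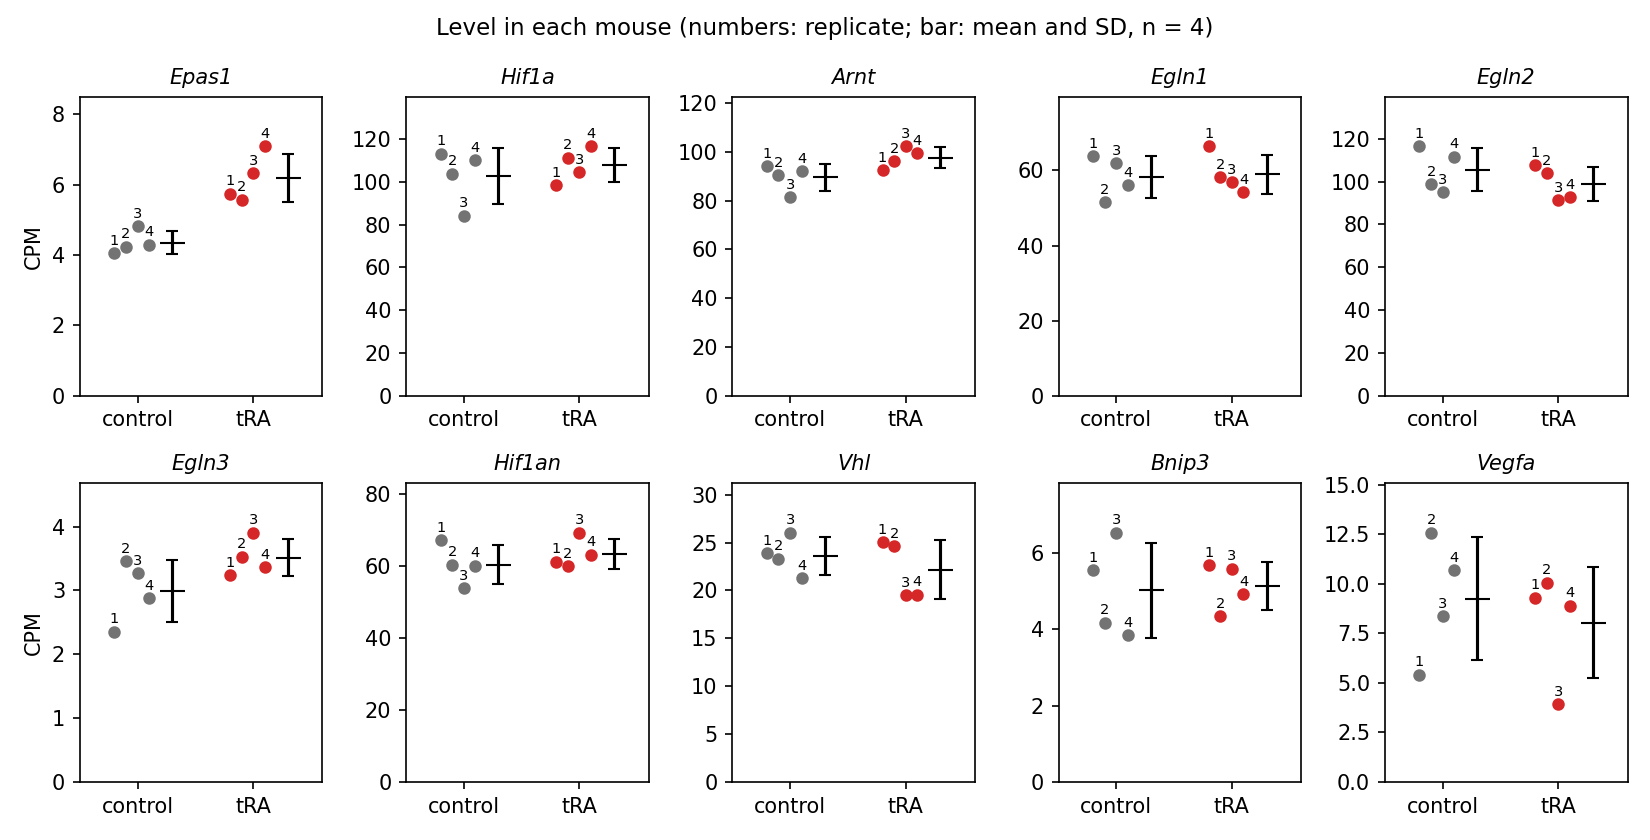
Level of each of the 10 genes (CPM, linear axes that start at 0) in the 4 control mice (grey) and the 4 tRA mice (red), with the replicate number at each point and the mean and SD of the group as a bar. Epas1 is the gene whose groups do not overlap, and Vegfa spreads the most between mice.

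Egln1 (chromosome 8, 124908587 to 124949324), the main prolyl hydroxylase that sets HIF stability, was expressed at 63.9, 51.5, 61.9 and 56.2 CPM in control mice 1 to 4 and 66.4, 58.3, 56.9 and 54.2 CPM in tRA mice 1 to 4. Both groups covered nearly the same range, with tRA 1 the highest and control 2 the lowest. Its log2 fold change of 0.014 (SE 0.089) turned to -0.041 without control 2, -0.0038 without control 4 and -0.048 without tRA 1, and it was 0.061 without control 1. Egln2 (chromosome 7, 27158658 to 27166802), a further prolyl hydroxylase, was at 116, 98.9, 95.2 and 112 CPM in control mice 1 to 4 and 108, 104, 91.3 and 92.8 CPM in tRA mice 1 to 4. Of the tRA mice, 2 (tRA 3 and tRA 4) were below the lowest control and the others lay within the control range. The log2 fold change of Egln2 was -0.094 (SE 0.085), and -0.15 (without control 3) to -0.043 (without control 1) with 1 mouse left out.

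Egln3 (chromosome 12, 54178981 to 54203860), a prolyl hydroxylase that HIF itself induces, was the least abundant of the 10 genes in CPM, at 2.35, 3.45, 3.26 and 2.88 CPM in control mice 1 to 4 and 3.24, 3.53, 3.90 and 3.36 CPM in tRA mice 1 to 4. The lowest value was that of control 1 and the highest that of tRA 3, and 2 of the 4 tRA mice were above the highest control. Its log2 fold change was 0.23 (SE 0.16), or 0.13 without control 1, on 87 to 144 counts per mouse. Hif1an (chromosome 19, 44562850 to 44576274) encodes FIH, the asparaginyl hydroxylase that blocks coactivator binding to HIF. Its level was 67.1, 60.3, 53.7 and 60.0 CPM in control mice 1 to 4 and 61.1, 59.9, 69.2 and 63.0 CPM in tRA mice 1 to 4. Control 3 was the lowest and tRA 3 the highest, and the remaining mice lay between them. The log2 fold change of Hif1an was 0.070 (SE 0.081), and 0.012 (without control 3) to 0.13 (without control 1) with 1 mouse left out. Vhl (chromosome 6, 113623959 to 113631633), the gene of the ubiquitin ligase subunit that recognizes hydroxylated HIF alpha, was at 23.9, 23.3, 26.0 and 21.3 CPM in control mice 1 to 4 and 25.0, 24.6, 19.5 and 19.6 CPM in tRA mice 1 to 4. The tRA mice formed a pair within the control range (tRA 1 and tRA 2) and a pair below it (tRA 3 and tRA 4). The log2 fold change of Vhl was -0.091 (SE 0.11), and -0.16 (without tRA 1) to -0.035 (without tRA 3) with 1 mouse left out.

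Among the targets, Bnip3 (chromosome 7, 138890836 to 138909519), a HIF-induced receptor for the removal of mitochondria, was expressed at 5.55, 4.17, 6.53 and 3.85 CPM in control mice 1 to 4 and 5.68, 4.35, 5.59 and 4.92 CPM in tRA mice 1 to 4. The control mice spanned the whole range of the tRA mice. The log2 fold change was 0.030 (SE 0.19), and it was -0.050 without control 2, -0.078 without control 4, -0.022 without tRA 1 and -0.015 without tRA 3, but 0.17 without control 3. Vegfa (chromosome 17, 46016993 to 46032369), the HIF-induced growth factor of blood vessels, varied the most, with 5.41, 12.6, 8.35 and 10.7 CPM in control mice 1 to 4 and 9.28, 10.04, 3.90 and 8.89 CPM in tRA mice 1 to 4. Control 1 and tRA 3 were low and control 2 was high, a 3.22-fold range over the 8 mice on 144 to 404 counts. The coefficient of variation was 33.4% in the control mice, where counting error alone gives 5.72%. Vegfa had a log2 fold change of -0.20 (SE 0.30), which was -0.39 (without control 1) to 0.025 (without tRA 3) with 1 mouse left out.

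Over all genes, the quasi-likelihood test of edgeR (p-values adjusted by Benjamini-Hochberg) gave 0 genes at an FDR under 0.1, or 0% of the 16484 tested, and 1070 genes (6.49%) at an unadjusted p under 0.05. Among the 10 genes the counts were 0 and 1, the latter Epas1. DESeq2 gave 44 genes at an FDR under 0.1, or 0.339% of the 12964 genes with an adjusted p, 1 of them among the 10 (Epas1), and limma-voom gave 1 gene (0.00607%), Camp, a neutrophil precursor granule gene and none of the 10. Groups that did not overlap were found for 584 genes (3.54%), 315 with the tRA mice higher (1.91%) and 269 with the tRA mice lower (1.63%). Of the 10 genes, 1 was of this kind, Epas1, with the tRA mice higher. Since Epas1 was chosen from this comparison, nothing is read from these counts. The direction of the log2 fold change was the same under TMM scaling, RLE scaling and library size alone for each of the 10 genes, and the median of all genes tested was 0.0014, 0.0042 and 0.031 under these.

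The order of the levels was compared per length, as CPM per kb of annotated exon, averaged over the 8 mice. Egln2 was the most abundant (36.5 CPM per kb), followed by Hif1a (17.8), Egln1 (16.3), Arnt (11.7), Hif1an (9.35), Vhl (7.64), Bnip3 (2.24), Vegfa (2.02), Egln3 (1.22) and Epas1 (0.942 CPM per kb). Neighbours in this order were compared within each mouse by a two-sided exact sign-flip permutation test, with p-values adjusted over the 9 neighbouring pairs. The rule that chose the genes did not use this order, but the neighbours were set by the means of the same 8 mice. All 45 pairs of the 10 genes were also tested, an alternative chosen after seeing the data. With p-values adjusted over the 45, 43 pairs passed at an adjusted p under 0.05, among them the same 7 of the 9 neighbouring pairs. This adjustment was the more lenient one. For Egln2 and Hif1a it gave an adjusted p of 0.00901, against 0.0176 over the 9 neighbouring pairs (exact test). It cannot make up for neighbours that were set by the same means. The step from Egln2 to Hif1a was 2.05-fold per length and was seen in 8 of 8 mice (p = 0.00781, the smallest that 8 mice can give, and adjusted p = 0.0176, exact test, n = 8). The step from Vhl to Bnip3 was 3.44-fold, also in 8 of 8 mice (p = 0.00781, adjusted p = 0.0176, exact test, n = 8). Below that step lay the HIF-induced Bnip3, Vegfa and Egln3 together with Epas1. With the exon lengths, Hif1a and Egln1 did not differ beyond their spread (1.09-fold per length, higher in 6 of 8 mice, p = 0.164, adjusted p = 0.185, exact test). Nor did Bnip3 and Vegfa (1.16-fold, 5 of 8 mice, p = 0.438, adjusted p = 0.438, exact test). The other steps passed at an adjusted p under 0.05 with the exon lengths. Of these, the step from Vegfa to Egln3 (1.58-fold, 7 of 8 mice, p = 0.0312, adjusted p = 0.0402, exact test) did not pass in 7 of the 8 repeats with 1 mouse left out (adjusted p = 0.0527 to 0.0804), where it was 1.493 to 1.598-fold and the smallest p that 7 mice can give is 0.0156, and passed without tRA 3 (1.80-fold). The step from Egln1 to Arnt (1.40-fold, 8 of 8 mice, p = 0.00781, adjusted p = 0.0176, exact test) was turned round by the length of the longest transcript, with Arnt 1.33-fold above Egln1 in 8 of 8 mice (p = 0.00781, adjusted p = 0.0176, exact test). By that length Arnt came next to Hif1a and did not differ from it beyond the spread (1.03-fold, 5 of 8 mice, p = 0.281, adjusted p = 0.316, exact test). Hif1a was then at 22.3 and Egln1 at 16.3 CPM per kb, no longer neighbours, and this pair was not tested by that length. The place of Arnt in the order and the gap between Hif1a and Egln1 thus depend on the length used.

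Epas1 was the lowest per length, 1.31-fold below Egln3 in 7 of 8 mice (p = 0.0156, adjusted p = 0.0234, exact sign-flip permutation test, n = 8), and tRA 4 was the mouse in which Epas1 was not below Egln3. In the control mice alone, taken as values without a test, the order of the 10 genes was the same, with Epas1 at 0.779 ± 0.0590 and Egln3 at 1.12 ± 0.183 CPM per kb (SD, n = 4). The tRA mice had Epas1 at 1.11 ± 0.122 and Egln3 at 1.32 ± 0.109 CPM per kb (SD, n = 4), a smaller gap. The 1.31-fold step thus averages over groups with different gaps. Epas1 was also the lowest by the longest transcript. The level of Epas1 per length was 3.79, 4.30, 6.05 and 4.12% of that of Hif1a in control mice 1 to 4, and 6.16, 5.28, 6.38 and 6.42% in tRA mice 1 to 4. Control 3, the mouse with the lowest Hif1a, was close to the tRA mice in this ratio and above tRA 2. By this ratio the groups thus overlapped, with means of 4.56 ± 1.01% and 6.06 ± 0.531% (SD, n = 4 each).

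**Figure D2:**
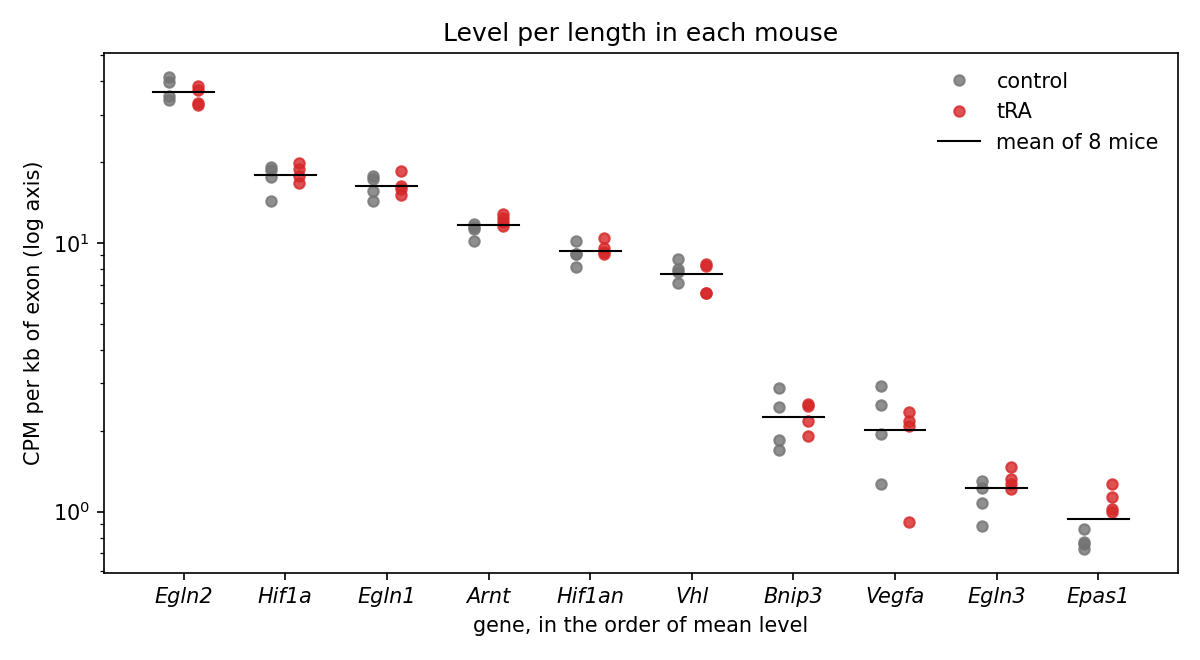
Level per length (CPM per kb of exon, log axis) of the 10 genes in each of the 4 control mice (grey) and 4 tRA mice (red), ordered by the mean of the 8 mice (line). Egln2 is at the top at 36.5 CPM per kb, and Bnip3, Vegfa, Egln3 and Epas1 lie apart at the bottom between 2.24 and 0.942 CPM per kb.

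Several of the 10 genes share their place with other annotated genes. Exons of Hif1a overlap those of the antisense gene Gm15283 over 330 bases, counted at 4 to 32 reads per mouse, and of Gm49321 on the same strand over 148 bases, counted at 0. Exons of Egln2 overlap those of Cyp2t4 on the opposite strand over 11 bases, and Cyp2t4 was counted at 123 to 163 reads, against 3036 to 4302 for Egln2. Exons of Bnip3 overlap those of the antisense gene Gm45507 over 504 bases, counted at 0. As the use of strand in the counting is not stated, reads from these shared bases cannot be told apart.

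The genes whose variation between mice was most like that of Epas1 were ranked by the Pearson correlation of log2 CPM after the group means were removed, over 8 mice and 13568 genes with a mean of at least 1 CPM. The points share their libraries and their depth, and 14 genes had a correlation of at least 0.9, so the ranking is a description. Here and in the lists below, a gene whose log2 fold change turned its sign or moved by over 1.5 times with 1 mouse left out has the range of those values after its SE. The first was Gm26530, a gene without a known product (r 0.96, mean 4.65 CPM, log2 fold change 0.30 with SE 0.17, range 0.18 to 0.38). It was followed by Tnfaip8l2, a brake on immune receptor signalling (r 0.95, mean 39.0 CPM, log2 fold change 0.13 with SE 0.11, range 0.055 to 0.19), and by Fut7, a fucosyltransferase that makes selectin ligands (r 0.94, mean 1.77 CPM, log2 fold change -0.14 with SE 0.26, range -0.33 to 0.0028). The next were Cldn12, a claudin (r 0.92, mean 1.58 CPM, log2 fold change 0.14 with SE 0.20, range 0.059 to 0.24), and Ifi203, an interferon-inducible gene (r 0.92, mean 285 CPM, log2 fold change 0.22 with SE 0.070). In the tRA group, these 5 genes were higher in tRA 3 and tRA 4 than in tRA 1 and tRA 2, as Epas1 was. The ranking itself favours genes with this order, so it is no separate result. Among the genes of the lists below, the highest correlations were those of Ltf, Ngp and Cebpe (r 0.90, 0.85 and 0.84), which are on the list of neutrophil precursor granule genes and had negative log2 fold changes.

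The wider pathway was examined with lists of genes, none of which had a gene at an FDR under 0.1 by edgeR's quasi-likelihood test. Other fits called genes of 2 of the lists, the neutrophil precursor granule genes and the immediate early and heat shock genes, as given there. The sign of each list's median was the same under TMM scaling, RLE scaling and library size alone. Of the 18 genes for HIF partners and the oxygen-sensing machinery, 18 were tested, 7 had a positive and 11 a negative log2 fold change, and the median was -0.084, where that of all genes tested was 0.0014. It was -0.13 (without tRA 1) to -0.036 (without tRA 4) with 1 mouse left out. The most abundant per length was Hsp90ab1, the chaperone that holds HIF-1 alpha (901 CPM per kb), at 3067 ± 497 CPM in control and 2338 ± 376 CPM in tRA mice (SD, n = 4 each). Arnt2, a second partner, had the highest log2 fold change of the list, 0.17 (SE 0.21, range 0.061 to 0.31). Siah2, a ubiquitin ligase that acts on the prolyl hydroxylases, had the lowest, -0.47 (SE 0.24, range -0.72 to -0.29), and was at 62.6, 49.8, 25.2 and 31.1 CPM in tRA mice 1 to 4, where tRA 3 was the lowest of all mice, against 58.2 ± 6.86 CPM in the control mice (SD, n = 4).

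Of 20 hypoxia-induced genes of glycolysis, 20 were tested, with 3 positive and 17 negative log2 fold changes and a median of -0.11, which was -0.13 (without tRA 1) to -0.052 (without tRA 3) with 1 mouse left out. Aldoa, the aldolase of muscle and blood cells, was the most abundant per length (105 CPM per kb), with a log2 fold change of -0.14 (SE 0.070). Hk1, a hexokinase, had the highest value of the list, 0.13 (SE 0.073, range 0.068 to 0.16), and Gapdh the lowest, -0.19 (SE 0.073). Gapdh, which has many pseudogene copies that can share its reads, was at 304, 321, 312 and 310.0 CPM in control mice 1 to 4 and 301, 281, 246 and 264 CPM in tRA mice 1 to 4, and it was the 1 gene of this list whose groups did not overlap, with the tRA mice lower, as for 1.63% of all genes tested. The glucose carrier Slc2a1, singled out after its values were seen, was at 94.9 ± 3.63 CPM in the control mice and 85.0 ± 17.8 CPM in the tRA mice (SD, n = 4 each), a difference within the spread of the tRA mice.

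Of 25 other hypoxia-induced genes, 22 were tested, with 9 positive and 13 negative log2 fold changes and a median of -0.058, which was -0.083 (without tRA 1) to -0.016 (without control 3) with 1 mouse left out. The lowest was that of Adm, the vasodilator adrenomedullin, -0.70 (SE 0.22). Adm was at 2.90, 2.71, 4.48 and 2.97 CPM in control mice 1 to 4 and 2.38, 2.11, 1.46 and 2.11 CPM in tRA mice 1 to 4, so the tRA mice all lay below the controls, as for 1.63% of all genes tested and for no other gene of this list. P4ha2, a collagen hydroxylase, had the highest value, 0.38 (SE 0.25, range 0.22 to 0.46), at 1.08 and 1.40 CPM on average. The most abundant per length was the chemokine receptor Cxcr4 (555 CPM per kb), which ranged in the tRA group from 259.9 CPM in tRA 3 to 1629 CPM in tRA 1 and had a log2 fold change of -0.44 (SE 0.46, range -0.97 to -0.14).

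Of 14 genes known as targets that prefer HIF-2, 10 were tested, with 3 positive and 7 negative log2 fold changes. Their median was -0.092, and -0.14 (without tRA 2) to 0.058 (without tRA 4) with 1 mouse left out. Epo, the classical HIF-2 target of the kidney, had 0 counts in the 8 mice. Plaur, the urokinase receptor, was the most abundant per length (54.5 CPM per kb), with a log2 fold change of -0.10 (SE 0.34, range -0.53 to 0.13). The iron exporter Slc40a1, a HIF-2 target singled out after its values were seen, was at 101 ± 24.3 and 102 ± 19.0 CPM in control and tRA mice (SD, n = 4 each), a log2 fold change of 0.011 (SE 0.17, range -0.10 to 0.17).

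Of 13 VEGF and angiopoietin ligands and receptors, 11 were tested, with 5 positive and 6 negative values. The median was -0.14, and -0.25 (without control 1) to 0.091 (without control 3) with 1 mouse left out. Vegfb was the most abundant per length (7.49 CPM per kb) and had a log2 fold change of -0.14 (SE 0.12, range -0.25 to -0.073). Kdr, the main VEGF receptor of endothelium, had the highest, 0.33 (SE 0.41, range -0.069 to 0.71), and the vessel-stabilizing ligand Angpt1 the lowest, -0.37 (SE 0.25, range -0.50 to -0.15). Of 14 genes of mitophagy, 13 were tested, with 5 positive and 8 negative values and a median of -0.053, which was -0.14 (without tRA 1) to -0.019 (without tRA 3) with 1 mouse left out. Gabarap, an autophagosome protein, was the most abundant per length (111 CPM per kb), with a log2 fold change of -0.16 (SE 0.093, range -0.26 to -0.12). Calcoco1, an autophagy receptor, had the highest, 0.16 (SE 0.081, range 0.099 to 0.20), and Map1lc3a, a further autophagosome protein, the lowest, -0.55 (SE 0.23). Bnip3l, the close relative of Bnip3 that clears mitochondria from red cells, was singled out after its values were seen. It was at 24.1 CPM per kb over the 8 mice, against 2.24 CPM per kb for Bnip3, and had a log2 fold change of 0.11 (SE 0.11, range 0.020 to 0.17).

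**Figure D3:**
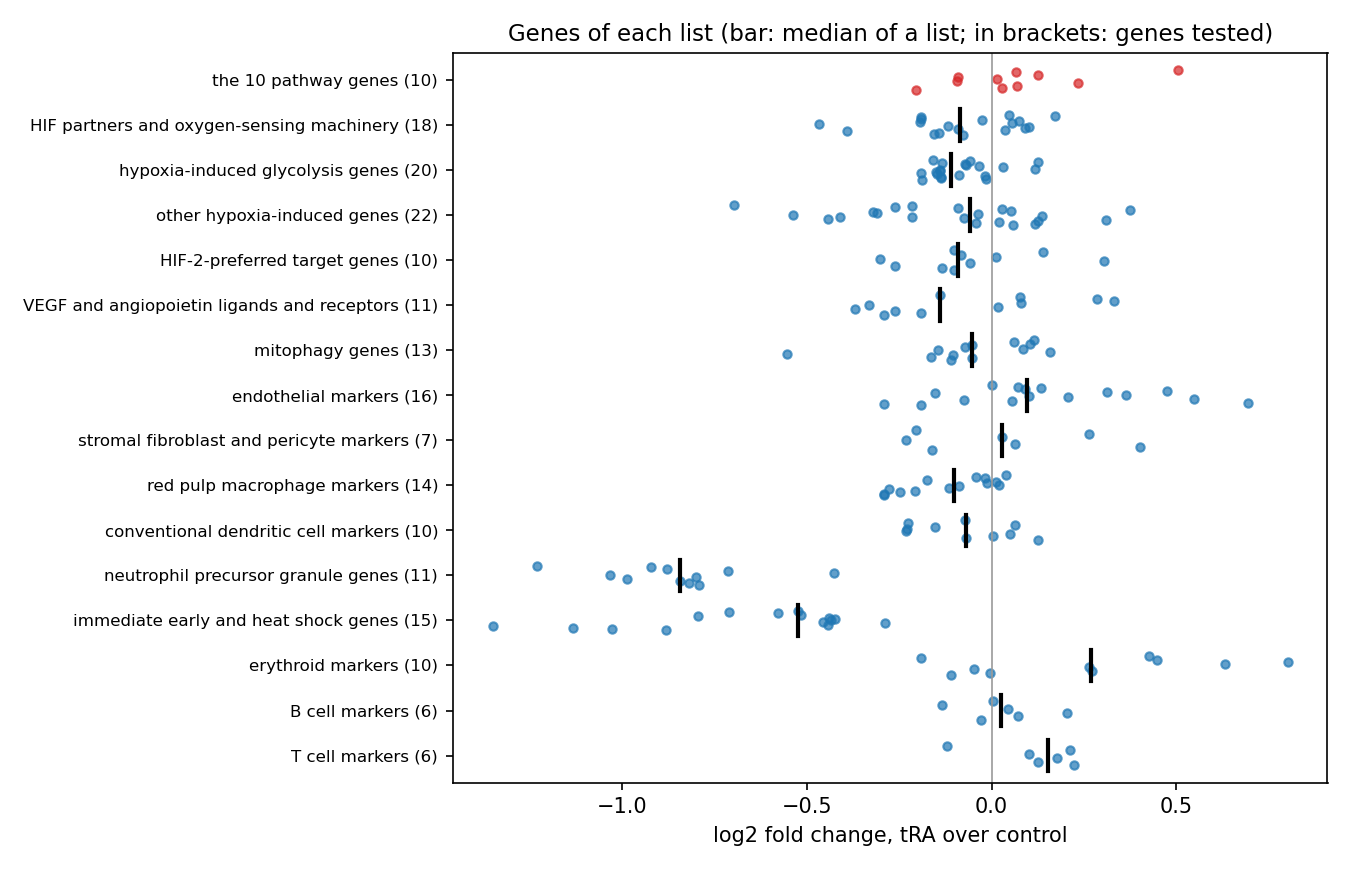
Log2 fold change (tRA over control, n = 4 each) of the 10 pathway genes and of each gene tested in the 15 lists, with the median of each list as a bar. The lists of the oxygen pathway and its targets (the first 6) have medians between -0.14 and -0.053, and neutrophil precursor granule genes and immediate early and heat shock genes have medians of -0.85 and -0.52.

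Markers of the cells that could carry Epas1 were read beside it. Of 18 endothelial markers, 16 were tested, with 12 positive and 4 negative log2 fold changes and a median of 0.096, which was -0.052 (without control 1) to 0.47 (without control 3) with 1 mouse left out and also negative without tRA 3 (-0.038). Their summed level was 269, 299, 309 and 269 CPM in control mice 1 to 4 and 279, 280.3, 318 and 288 CPM in tRA mice 1 to 4. Most of it was Pecam1, also the most abundant per length (38.5 CPM per kb), which platelets and leukocytes express too and which was at 239.8 ± 4.92 and 240.1 ± 2.95 CPM in control and tRA mice (SD, n = 4 each). The defining marker Cdh5 was at 2.00, 4.58, 4.85 and 3.94 CPM in control mice 1 to 4 and 3.12, 3.15, 6.51 and 3.30 CPM in tRA mice 1 to 4. Neither defining marker was at 0, and the groups overlapped for both. The highest value of the list was that of Ptprb, an endothelial phosphatase, 0.69 (SE 0.49, range 0.29 to 1.21), and the lowest that of Tie1, an endothelial receptor, -0.29 (SE 0.48, range -0.75 to 0.091). The part of endothelial cells in the Epas1 difference was not tested.

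Of 13 stromal fibroblast and pericyte markers, 7 were tested, with 4 positive and 3 negative values, and the median of 0.027 changed sign under 7 of 15 alternatives and was -0.22 (without tRA 3) to 0.36 (without control 3) with 1 mouse left out. The list summed to 6.50, 8.65, 13.0 and 8.05 CPM in control mice 1 to 4 and 10.7, 7.34, 11.2 and 7.76 CPM in tRA mice 1 to 4, a low level in each mouse. Acta2, the actin of smooth muscle, was the most abundant per length (0.982 CPM per kb) and had the highest log2 fold change, 0.40 (SE 0.29, range 0.080 to 0.57), and the defining marker Pdgfrb the lowest, -0.23 (SE 0.21, range -0.37 to -0.058). The other defining marker, Col1a1, was at 0.596 and 0.513 CPM in control and tRA mice. Of 14 red pulp macrophage markers, 14 were tested, with 3 positive and 11 negative values and a median of -0.10, which was -0.28 (without tRA 3) to 0.048 (without tRA 1) with 1 mouse left out and also positive without control 2 (0.038). They summed to 1012, 1301, 958 and 813 CPM in control mice 1 to 4 and 707, 999, 1179 and 927 CPM in tRA mice 1 to 4, with tRA 1 the lowest and control 2 the highest. Hmox1, the heme-degrading enzyme, was the most abundant per length (94.1 CPM per kb). The defining markers Adgre1 and Spic were at 30.2 ± 3.28 and 44.8 ± 10.9 CPM in the control mice and 31.004 ± 5.76 and 44.2 ± 9.004 CPM in the tRA mice (SD, n = 4 each). Adgre1 had the highest log2 fold change, 0.040 (SE 0.13, range -0.047 to 0.16), and Cd5l, a macrophage-secreted protein, the lowest, -0.29 (SE 0.19, range -0.42 to -0.15).

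Of 10 conventional dendritic cell markers, 10 were tested, with 4 positive and 6 negative values and a median of -0.070, which was -0.15 (without control 1) to -0.017 (without tRA 1) with 1 mouse left out. Their sum was 343, 461, 431 and 483 CPM in control mice 1 to 4 and 361, 442, 478 and 443 CPM in tRA mice 1 to 4. The defining markers Zbtb46 and Flt3 were at 9.57 ± 2.22 and 24.1 ± 3.41 CPM in the control mice and 9.98 ± 1.596 and 20.6 ± 2.63 CPM in the tRA mice (SD, n = 4 each). Cd8a, which T cells also express, was the most abundant per length (37.7 CPM per kb) and the highest, 0.13 (SE 0.14, range 0.0089 to 0.23), and the lectin Clec10a the lowest, -0.23 (SE 0.19, range -0.35 to -0.12). B cell markers (6 of 6 tested, 4 positive and 2 negative) had a median of 0.025, which was -0.035 (without control 4) to 0.066 (without control 1) with 1 mouse left out. The most abundant of them per length and the lowest was Cd79a (915 CPM per kb, log2 fold change -0.13 with SE 0.086, range -0.18 to -0.084), and the highest was Ms4a1, 0.20 (SE 0.13, range 0.10 to 0.32). T cell markers (6 of 6 tested, 5 positive and 1 negative) had a median of 0.15. Cd4 was the most abundant per length (62.0 CPM per kb), Cd28 the highest, 0.22 (SE 0.10, range 0.15 to 0.30), and Cd3d the lowest, -0.12 (SE 0.13, range -0.21 to -0.017). They summed to 789, 804, 902 and 955 CPM in control mice 1 to 4 and 934, 928, 969 and 965 CPM in tRA mice 1 to 4.

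In a pair of lists the log2 fold changes all had the same sign. Both lists were chosen with earlier results of these data known, and the study itself names Camp, Ngp and Ltf among its changed genes. By that choice the lists could exceed the shares over all genes, so nothing is read from their counts. Of 15 immediate early and heat shock genes, 15 had a negative log2 fold change, with a median of -0.52, which was -0.91 (without tRA 1) to -0.30 (without tRA 3) with 1 mouse left out. The groups did not overlap for 6 of them, with the tRA mice lower, as for 1.63% of all genes tested. DESeq2 called 3 of them at an FDR under 0.1 (Jun, Egr1 and Bag3), against 0.339% of all genes with an adjusted p. Their sum was 18426, 17195, 18521 and 15406 CPM in control mice 1 to 4 and 16323, 13553, 6059.9 and 8778 CPM in tRA mice 1 to 4. The sums of tRA 3 and tRA 4 were the lowest of the 8 mice, but the heat shock genes Hspa1a, Hspa1b and Dnajb1, singled out after their values were seen, were the lowest in tRA 3 and tRA 1, and tRA 4 was the highest tRA mouse for each of them. Bag3, the other heat shock gene of the list, was at 20.2, 26.4, 12.1 and 17.7 CPM in tRA mice 1 to 4, with tRA 3 and tRA 4 the lowest. The most abundant per length was Fos (1148 CPM per kb), the highest log2 fold change was that of Ier3, -0.29 (SE 0.28, range -0.52 to -0.099), and the lowest that of the heat shock gene Hspa1a, -1.35 (SE 0.45, range -1.63 to -0.89). Of 11 neutrophil precursor granule genes, 11 had a negative log2 fold change, with a median of -0.85, and the groups did not overlap for 6 of them in the same direction. At an FDR under 0.1, DESeq2 called 5 of them (Camp, Ngp, Ltf, Lcn2 and Olfm4), limma-voom 1 (Camp), and edgeR 3 (Camp, Ngp and Ltf) without the filter on low counts and the same 3 without tRA 4. Over all genes, DESeq2 called 0.339% and limma-voom 0.00607%. With edgeR it was 6 of 29817 genes without the filter and 3 of 16732 without tRA 4. The 11 granule genes summed to 562, 712, 752 and 644 CPM in control mice 1 to 4 and 256, 321, 351 and 501 CPM in tRA mice 1 to 4. Ngp, a defining marker, was the most abundant per length (203 CPM per kb), Chil3 the highest, -0.43 (SE 0.21), and Camp, the other defining marker, the lowest, -1.23 (SE 0.16). Erythroid markers (10 of 10 tested, 6 positive and 4 negative) had a median of 0.27, which was -0.26 (without tRA 3) to 0.51 (without control 3) with 1 mouse left out, and summed to 947, 1712, 2559 and 597 CPM in control mice 1 to 4 and 2404, 748, 3789 and 708 CPM in tRA mice 1 to 4. Hbb-bs, an adult globin with near-identical copies, was the most abundant per length (1288 CPM per kb), Hbb-bt the highest, 0.80 (SE 0.67, range 0.050 to 1.40), and Hba-a2 the lowest, -0.19 (SE 0.52, range -0.57 to 0.26). The defining marker Alas2 was at 34.7 ± 20.1 CPM in the control mice and 53.8 ± 48.4 CPM in the tRA mice (SD, n = 4 each). The part of these genes in the Epas1 difference was not tested.

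The DNA before the RefSeq starts of the genes was searched for the core of the hypoxia response element, to which HIF binds, as ACGTG or GCGTG on both strands. RefSeq promoters (build GRCm38.p6) were matched for 9 of the 10 genes, with 11 starts, and not for Epas1. The windows of Hif1a and of the second starts of Egln2 and Vegfa lie wholly within the genes as annotated by GENCODE, and count among the 11. In the 250 bases before the start, ACGTG was found at 6 of the 11 starts and in 16.6% of 32841 promoters of this length, and GCGTG at 6 of the 11 and in 28.2%. Either core was found at 8 of the 11 starts and in 38.6% of the promoters. The half-site of retinoic acid receptors, AGGTCA, was found at 2 of the 11 starts, those of Hif1a and Hif1an, and in 14.0% of the promoters. A match is a description of letters and not of binding. The windows of Bnip3, Egln3 and Vegfa are shown as those of the 3 genes that HIF is known to induce and that were scarce per length, with the cores in capitals. That of Bnip3 (chr7:138909507-138909756, minus strand) holds ACGTG 2 times and GCGTG 3 times on the 2 strands, where CACGTG counts on both, and its last 13 bases lie within the annotated first exon. That of Egln3 (chr12:54203875-54204124, minus strand) holds ACGTG 1 time, and the upstream start of Vegfa (chr17:46032378-46032627, minus strand) has 0 matches. The last 2 windows lie before the annotated genes. The second start of Vegfa (chr17:46025164-46025413, minus strand), whose window is not shown, holds ACGTG 1 time and GCGTG 1 time.
Bnip3: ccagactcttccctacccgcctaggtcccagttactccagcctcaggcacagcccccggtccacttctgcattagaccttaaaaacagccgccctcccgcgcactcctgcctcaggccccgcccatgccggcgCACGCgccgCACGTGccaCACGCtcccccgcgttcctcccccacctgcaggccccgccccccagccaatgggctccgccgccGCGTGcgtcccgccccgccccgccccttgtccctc
Egln3: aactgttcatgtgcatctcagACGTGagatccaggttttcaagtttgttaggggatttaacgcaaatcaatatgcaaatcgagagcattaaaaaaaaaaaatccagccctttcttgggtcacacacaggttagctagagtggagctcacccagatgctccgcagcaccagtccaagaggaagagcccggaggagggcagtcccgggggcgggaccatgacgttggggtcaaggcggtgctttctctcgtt
Vegfa: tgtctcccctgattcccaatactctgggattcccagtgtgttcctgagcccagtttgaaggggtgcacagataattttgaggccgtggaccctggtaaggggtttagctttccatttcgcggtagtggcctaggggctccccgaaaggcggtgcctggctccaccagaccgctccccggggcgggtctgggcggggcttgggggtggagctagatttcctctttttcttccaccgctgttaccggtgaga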

How the data were processed

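The authors deposited raw counts of reads per gene for each mouse, with no unmapped column of values. The study's methods name ea-utils, Btrim, Bowtie2, Tophat2 and HTSeq, whereas the submitters' processing notes name STAR 2.5.2b, featureCounts 1.5.1 and DESeq2 1.26.0 on GRCm38, so which tools made the counts is not settled. The authors' table of DESeq2 fold changes and p-values was not used here. Symbols, positions and exon lengths came from GENCODE M21.

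Counts were analysed with edgeR 4.0.16 (filterByExpr with a minimum of 10 counts, TMM, quasi-likelihood test), limma 3.58.1 and DESeq2 1.42.0 in R 4.3.3. The members and lists were chosen with earlier results of these data known. The genes named were the 10 pathway genes, the most abundant per length and the highest and lowest log2 fold change of each list, and the 5 genes most like Epas1, apart from some that are not reported here. The alternatives were DESeq2, limma-voom, other scaling, other filters, the replicate number as a block, other lengths, and each mouse left out in turn. The fits were tested on simulated data. Over all genes together, the counts of each 2 mice of a group differed by more than sampling noise.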

Additional observations from a re-analysis of the deposited data

Results flagged for a closer look

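In 50 groups of 4 mice, made of the 10 genes and the 15 list sums in each group, 3 held a mouse far from the other 3 by the ratio of its gap to the whole range on the log2 scale, where chance gives about 1 in 20, or 2.5. Vegfa in the tRA mice had a ratio of 0.867, with tRA 3 at 3.90 CPM and the highest, tRA 2, at 10.04 CPM. The sum of the VEGF and angiopoietin ligands and receptors in the control mice had a ratio of 0.869, with control 1 at 39.3 CPM and the highest, control 2, at 55.0 CPM. The sum of the B cell markers in the tRA mice had a ratio of 0.953 within a narrow range, with tRA 4 at 5800 CPM and the highest, tRA 3, at 5959 CPM. The causes were not tested.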

How the results depend on the processing

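Genes at an FDR under 0.1 numbered 0 with edgeR, 44 with DESeq2, 1 with limma-voom and 6 without a filter on low counts, and the cause was not tested. With 1 mouse left out at a time, edgeR gave 0 to 3 (3 without tRA replicate 4), and 657 (without tRA replicate 4) to 2105 (without tRA replicate 1) genes at an unadjusted p under 0.05, against 1070. With the replicate block, edgeR gave 0 genes at an FDR under 0.1 and 1200 at an unadjusted p under 0.05. Mice of the same number correlated in their deviations at 0.210, -0.024, -0.022 and 0.308, and mice of different numbers at -0.339 to 0.303. Of the 8 mice, 3 correlated best with their own number, and 2 of the 4 same-numbered pairs were over 0.1, so the numbers were not taken as pairs. Over the 15 alternatives the log2 fold change of Epas1 was 0.43 to 0.55. Of the 9 neighbouring pairs in the order of levels per length, 7 passed. With 1 mouse left out 6 passed, Vegfa and Egln3 being the pair lost, and 7 without tRA replicate 3. By the longest transcript 7 passed too, but the pairs around Arnt were others. With adjustment over all 45 pairs 7 passed, but that adjustment is more lenient. Library size alone gives the same pairs by construction. For the other genes and lists whose fold change is printed, sign changes and moves of over 1.5 times with 1 mouse left out stand beside the values. Some list medians also moved by over 1.5 times under other alternatives. With limma-voom they were -0.047 (VEGF and angiopoietin), -0.036 (HIF-2 targets), 0.22 (endothelial) and 0.14 (erythroid). The replicate block gave 0.13 for the erythroid and 0.15 for the endothelial markers. Library size alone gave -0.025 (other hypoxia-induced genes), -0.031 (mitophagy) and -0.040 (conventional dendritic cell). It also gave -0.068 (red pulp macrophage) and 0.056 (B cell). The stromal median was 0.081 with library size alone, 0.016 with DESeq2 and 0.047 with limma-voom. It was -0.019 with the replicate block and -0.16 with at least 10 counts in every sample. Egln3, Epas1 and Bnip3 have the fewest counts of the 10 genes.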
